A study of Mus musculus with 12 samples.

Results

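Prox1, C1ql2, Dsp, Wfs1, Fibcd1, Mpped1, Bok and Iyd are 8 genes used as markers of the principal neurons of 3 hippocampal subfields. They were followed across 12 libraries of whole hippocampus to ask whether the tissue of APP/PS1 and wild-type (WT) mice held the subfields in equal amount. They come from a list of named subfield markers and are 8 of the 55573 genes in the count table. Prox1, C1ql2 and Dsp stand for dentate gyrus granule cells, Wfs1, Fibcd1 and Mpped1 for CA1 pyramidal cells, and Bok and Iyd for CA3 pyramidal cells. All 8 were among the 14008 genes with enough reads to be tested. Their median level was 94.5 normalised CPM (read counts per gene, scaled by the size of each library), against 26.3 over all genes tested, and Iyd was the lowest, with 109 to 184 counts per library.

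The mice were C57BL/6J animals aged 4.5 months. The APP/PS1 mice (APPSwe/Ps1dE9) carry a chimeric mouse and human APP with familial Alzheimer mutations together with human PS1 lacking exon 9 (the 2 transgenes), both under a prion promoter element. For each sex, RNA was taken from the right hippocampus of 4 animals with the transgenes and of 2 WT animals, and sequenced as directional polyA libraries with one library per animal. Each sex thus rests on 2 WT animals, and p-values measure the spread between animals.

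The hippocampus is a chain of connected fields. Granule cells of the dentate gyrus receive input from the entorhinal cortex and send mossy fibres to CA3 pyramidal cells, which in turn project through the Schaffer collaterals to CA1. Granule cells are also among the few neurons added in the adult brain, and CA1 is the field in which long-term potentiation is most often recorded. Each field expresses its own set of genes, so the level of such genes in whole tissue follows how much of each field is in the dissected piece. In bulk RNA, fewer cells of a type and less RNA per cell cannot be told apart.

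Total counts per library ranged from 36714316 to 50643565. In 3 libraries, APP/PS1 female 1, WT female 2 and APP/PS1 male 2, the choroid plexus transcript Ttr stood at 3530 to 6360 CPM, against 2.69 to 18.3 CPM in the other 9. The App row, in which reads of the chimeric transgene were not set apart, lay at 1540 to 1660 CPM in APP/PS1 females and 1550 to 1720 CPM in WT females, and at 1600 to 1650 CPM in APP/PS1 males and 1560 to 1690 CPM in WT males, so it did not separate the genotypes. The model held a term for each group and 2 factors of unwanted variation (RUV factors), estimated from genes that differed little between the groups. A gene is called when its false discovery rate (FDR, Benjamini-Hochberg over the 14008 genes) is under 0.1 in edgeR's quasi-likelihood test.

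The dentate gyrus genes lie on chromosomes 1 and 13 of GRCm38. Prox1 (ENSMUSG00000010175), a homeodomain transcription factor that granule cells keep throughout life, spans chr1:190118035-190170714 on the minus strand. C1ql2 (ENSMUSG00000036907), a secreted C1q-like protein of mossy fibre synapses, spans chr1:120340582-120343174 on the plus strand. Dsp (ENSMUSG00000054889), which encodes the desmosomal plaque protein desmoplakin, spans chr13:38151294-38198577 on the plus strand. The antisense genes Prox1os and Gm28172 overlap Prox1, and they held 128 to 235 and 8 to 25 counts per library, against 3437 to 5105 for Prox1. Gm10129, which overlaps Dsp on the other strand, held 12 to 32 counts, against 1679 to 2714 for Dsp. The strand option of the counting is not given in the sources used here.

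Of the CA1 genes, Wfs1 (ENSMUSG00000039474), a membrane protein of the endoplasmic reticulum, spans chr5:36966104-36989205 on the minus strand. Fibcd1 (ENSMUSG00000026841), a membrane receptor with a fibrinogen-like domain, spans chr2:31813290-31846005 on the minus strand. Mpped1 (ENSMUSG00000041708), a metallophosphoesterase domain protein, spans chr15:83779467-83858494 on the plus strand. Of the CA3 genes, Bok (ENSMUSG00000026278), a member of the Bcl-2 family, spans chr1:93685660-93695764, and Iyd (ENSMUSG00000019762), which encodes iodotyrosine deiodinase, spans chr10:3540240-3554877, both on the plus strand. None of these 5 genes overlaps another annotated gene.

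The 250 bases upstream of the start are shown for the 3 dentate gyrus genes, which include the pair of markers with the highest correlation across animals (Prox1 and Dsp), and for Fibcd1, the gene with the smallest p in the genotype comparison. The sequences are those of RefSeq on GRCm38.p6, read 5′ to 3′ on the strand of the gene, and all 8 genes matched an entry. Capitals mark each E-box (CANNTG, which reads the same on both strands), the general binding motif of basic helix-loop-helix factors. They cover chr1:190170828-190171077 for Prox1, chr1:120340332-120340581 for C1ql2, chr13:38151044-38151293 for Dsp and chr2:31846006-31846255 for Fibcd1.
Prox1: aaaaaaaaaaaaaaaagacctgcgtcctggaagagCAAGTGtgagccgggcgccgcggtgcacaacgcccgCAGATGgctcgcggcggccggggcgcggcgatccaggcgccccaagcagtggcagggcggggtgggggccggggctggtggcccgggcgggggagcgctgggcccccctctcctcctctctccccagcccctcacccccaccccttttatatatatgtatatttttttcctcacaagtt
C1ql2: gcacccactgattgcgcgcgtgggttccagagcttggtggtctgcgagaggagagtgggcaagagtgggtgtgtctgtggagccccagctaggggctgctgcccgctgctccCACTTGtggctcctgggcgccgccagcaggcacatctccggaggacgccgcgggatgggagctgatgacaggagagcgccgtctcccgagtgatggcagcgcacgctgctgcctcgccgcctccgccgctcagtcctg
Dsp: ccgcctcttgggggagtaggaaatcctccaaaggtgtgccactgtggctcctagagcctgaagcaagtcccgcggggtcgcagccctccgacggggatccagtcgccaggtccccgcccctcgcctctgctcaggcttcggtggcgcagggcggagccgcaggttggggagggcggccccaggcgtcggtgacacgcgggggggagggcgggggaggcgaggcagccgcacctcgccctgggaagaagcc
Fibcd1: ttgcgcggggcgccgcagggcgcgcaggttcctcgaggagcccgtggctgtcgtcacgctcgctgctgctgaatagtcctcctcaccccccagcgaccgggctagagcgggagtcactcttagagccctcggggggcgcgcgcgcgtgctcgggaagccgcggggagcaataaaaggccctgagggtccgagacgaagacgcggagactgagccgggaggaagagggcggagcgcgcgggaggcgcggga
The Prox1 window holds 2 E-boxes and the C1ql2 window 1, while those of Dsp and Fibcd1 hold 0. Across 32851 promoter windows of the same length, 66.2% hold at least 1. The 3 dentate gyrus genes did not share this motif in these windows. Their windows are of 64.8%, 68.8% and 72.4% G and C bases, and that of Fibcd1 of 71.6%, against a median of 52.4% over all windows.

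Compared per length of transcript, the markers differed widely in level. Mpped1 had the highest mean, 49.9 ± 4.48 CPM per kilobase of exon (RPKM; SD, n = 12), followed by C1ql2 at 41.4 ± 5.92 RPKM, Wfs1 at 36.9 ± 5.86 RPKM, Fibcd1 at 29.1 ± 4.59 RPKM and Bok at 28.8 ± 5.46 RPKM. Prox1 lay at 12.7 ± 1.58 RPKM, Dsp at 5.32 ± 1.08 RPKM and Iyd at 2.17 ± 0.464 RPKM. From Mpped1 down to Bok, the ranges of each marker and the next in the order overlapped, so these neighbours were not separated beyond their spread, whereas Prox1, Dsp and Iyd each lay wholly below the marker before them. The markers also varied to different degrees between animals. The SD was 8.96% of the mean for Mpped1, 12.5% for Prox1 and 14.3% for C1ql2, and reached 20.4% for Dsp and 21.4% for Iyd.

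**Figure D1:**
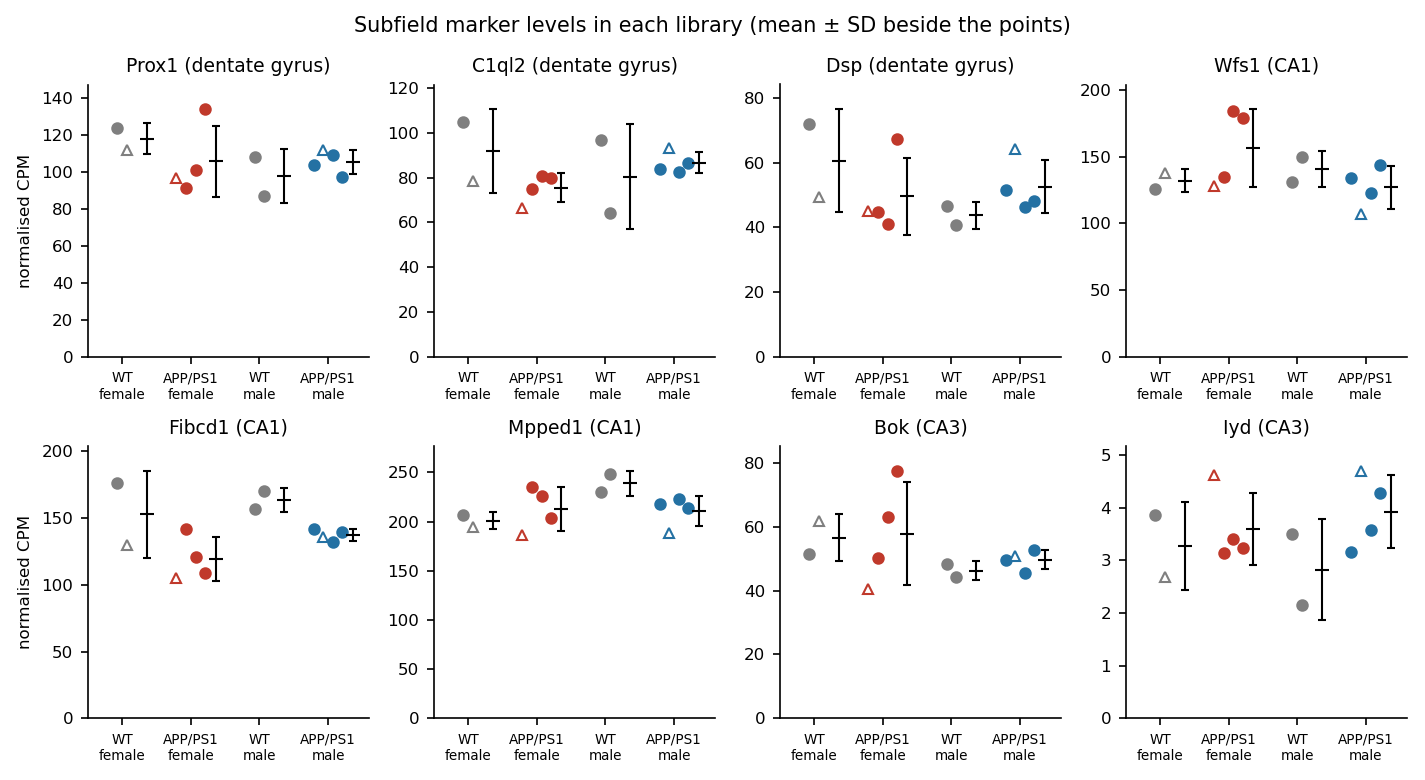
Normalised CPM (vertical axis) of each of the 8 markers in every library, by group; each point is 1 animal, open triangles are the 3 choroid plexus-rich libraries, and the bar beside each group gives the mean ± SD (n = 4 for APP/PS1 and 2 for WT in each sex). The groups overlap for most markers; in males, all 4 APP/PS1 values of Fibcd1 and of Mpped1 lie below both WT values.

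The genotype comparison asked whether the markers differed between the 8 APP/PS1 and the 4 WT animals, with both sexes averaged. None of the 8 was called, while 266 of all genes tested (1.9%) were. The markers' log2 fold changes had a median of -0.06 and ranged from -0.28 for Fibcd1 to 0.29 for Iyd, and over all genes tested the median was 0.01. At an unadjusted p under 0.05, 1 of the 8 passed (Fibcd1, lower), against 9.57% of all genes and 3.31% in that direction. Without RUV factors 1.24% of genes were called, again with none of the 8. No marker had all 8 APP/PS1 animals outside the range of the 4 WT animals, which 1.45% of genes did.

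Among the dentate gyrus markers, normalised Prox1 was 96.8, 91.5, 101 and 134 CPM in APP/PS1 females 1 to 4 and 124 and 112 CPM in the WT females. In APP/PS1 males it was 104, 112, 109 and 97.1 CPM, and in the WT males 108 and 87.3 CPM. The highest value belonged to an APP/PS1 female and the lowest to a WT male. The log2 fold change over both sexes was -0.08 (SE 0.0479, edgeR FDR 0.616), and the 95% interval ran from -12.2% to 1.35%. Without RUV factors it was -0.02 (SE 0.0958), with a wider log2 interval, from -0.23 to 0.18.

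C1ql2 stood at 66.6, 74.7, 80.9 and 79.7 CPM in APP/PS1 females and at 105 and 78.6 CPM in WT females. It stood at 83.8, 93.1, 82.5 and 86.7 CPM in APP/PS1 males and at 96.9 and 64 CPM in WT males. The 4 WT animals spanned a wider range than the 8 APP/PS1 animals, which all lay within it. The log2 fold change was -0.11 (SE 0.103, edgeR FDR 0.806), with an interval from -21.0% to 8.63%.

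Dsp was 45.1, 44.7, 41.1 and 67.3 CPM in APP/PS1 females and 71.8 and 49.3 CPM in WT females. In males it was 51.6, 64.3, 46.3 and 48 CPM in APP/PS1 and 46.7 and 40.6 CPM in WT animals. Again every APP/PS1 value fell inside the WT range. The log2 fold change was -0.09 (SE 0.119, edgeR FDR 0.882), with an interval from -21.7% to 13.5%.

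Of the CA1 markers, Fibcd1 showed the lowest levels in APP/PS1 animals relative to WT. It was 105, 142, 121 and 109 CPM in APP/PS1 females and 176 and 130 CPM in WT females, and 142, 136, 132 and 140 CPM in APP/PS1 males and 157 and 170 CPM in WT males. All 4 APP/PS1 males lay below both WT males, as for 4.34% of all genes tested. APP/PS1 female 2 lay between the WT females and the other 3 below both. How many of all genes did so in females was not counted. The log2 fold change was -0.28 (SE 0.0765, unadjusted p = 0.00342, edgeR FDR 0.145), which is -17.7%, with an interval from -26.8% to -7.59%. It thus missed the threshold in the quasi-likelihood test, but passed it in the likelihood ratio test of edgeR (FDR 0.0276) and in DESeq2 (FDR 0.00689). Without the 3 choroid plexus-rich libraries and without RUV factors the log2 fold change was -0.38, in a fit in which WT female 1 was the only WT female. The result rested in part on the WT females, since it was -0.17 (FDR 0.614) without WT female 1 and -0.38 (FDR 0.0513) without WT female 2. It also passed the threshold without APP/PS1 female 2 (FDR 0.0444).

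Wfs1 was 128, 135, 184 and 179 CPM in APP/PS1 females and 126 and 138 CPM in WT females, and 134, 107, 123 and 144 CPM in APP/PS1 males and 131 and 150 CPM in WT males. Both the highest and the lowest values came from APP/PS1 animals. Its log2 fold change was 0.04 (SE 0.105, edgeR FDR 0.948), with an interval from -12.8% to 21.1%. Mpped1 was 186, 235, 226 and 204 CPM in APP/PS1 females and 207 and 195 CPM in WT females, and 218, 188, 223 and 214 CPM in APP/PS1 males and 230 and 248 CPM in WT males. It was the most evenly expressed of the 8 and had the narrowest interval, from -8.74% to 4.75%, around a log2 fold change of -0.03 (SE 0.046, edgeR FDR 0.883).

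The CA3 markers were less precise. Bok was 40.6, 50.3, 63 and 77.5 CPM in APP/PS1 females and 51.3 and 61.7 CPM in WT females. In males it was 49.7, 50.7, 45.6 and 52.7 CPM in APP/PS1 and 48.3 and 44.2 CPM in WT animals. The spread of Bok was widest in APP/PS1 females, where it covered the values of all other groups. Its log2 fold change was 0.01 (SE 0.127, edgeR FDR 0.996), with an interval from -17.7% to 22.6%.

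Iyd was 4.61, 3.14, 3.41 and 3.23 CPM in APP/PS1 females and 3.86 and 2.68 CPM in WT females, and 3.15, 4.7, 3.57 and 4.28 CPM in APP/PS1 males and 3.5 and 2.15 CPM in WT males. The 2 highest values came from choroid plexus-rich APP/PS1 libraries (female 1 and male 2), and WT female 2, the third such library, had 2.68 CPM. Its log2 fold change was 0.29 (SE 0.179, edgeR FDR 0.652), with an interval from -6.34% to 60.1%. Without RUV factors it was 0.31 on all 12 libraries and 0.07 without these 3, a fit in which WT female 1 was the only WT female. With the factors and without WT female 2 alone it was 0.09, so the 2 changes could not be told apart. Of the 8 markers, Iyd was the one whose interval left room for the largest difference.

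**Figure D2:**
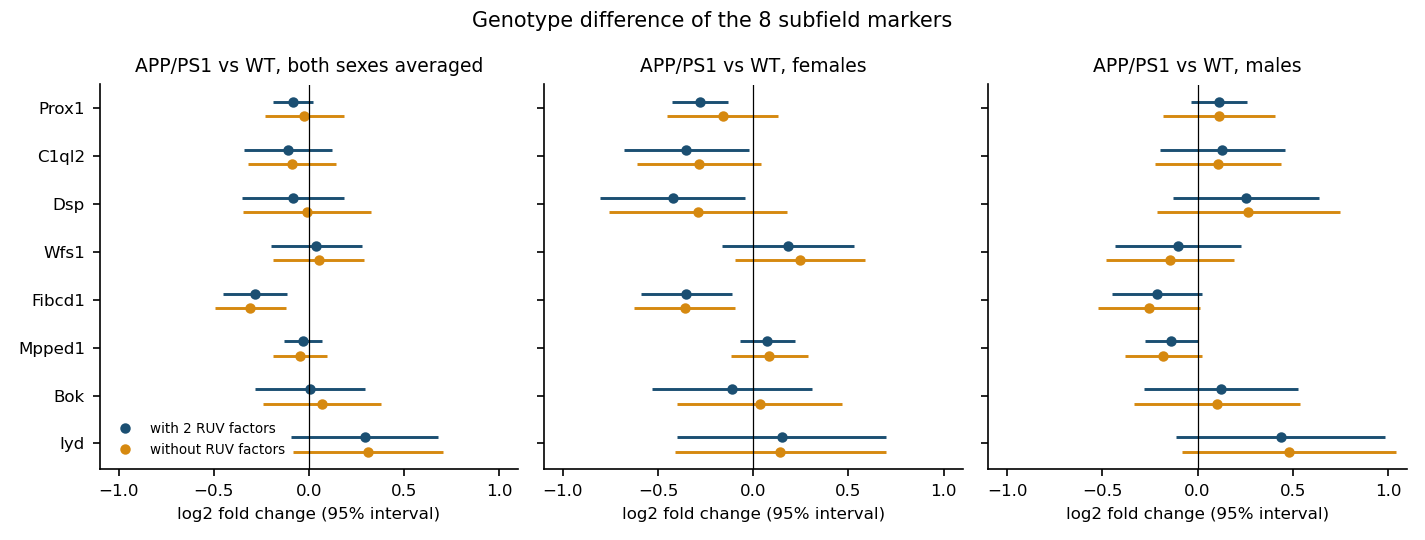
Log2 fold change of APP/PS1 against WT (horizontal axis) with its 95% interval for each marker, over both sexes averaged, in females and in males; blue is the fit with 2 RUV factors and orange the fit without them. Over both sexes only the interval of Fibcd1 lies wholly below 0, from -0.45 to -0.11; in females those of Prox1, C1ql2 and Dsp also do so in the fit with the factors.

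In females the 3 dentate gyrus markers and Fibcd1 had lower fitted levels in APP/PS1 than in WT animals, and none was called, against 108 genes (0.771%) in all and 0.478% without RUV factors. The log2 fold change was -0.28 for Prox1 (SE 0.0686, unadjusted p = 0.00128, edgeR FDR 0.126), -0.35 for C1ql2 (SE 0.147, FDR 0.48), -0.42 for Dsp (SE 0.168, FDR 0.453) and -0.35 for Fibcd1 (SE 0.109, FDR 0.298). These 4 were all lower at an unadjusted p under 0.05, a level that 9.79% of genes passed and 3.64% in that direction. In 3 of the 4 APP/PS1 females, Prox1 and Dsp lay below both WT females, whereas in APP/PS1 female 4 Prox1 was above both and Dsp between them. C1ql2 was below both in 2 of 4. How many of all genes had such orders was not counted. Wfs1 (0.18), Mpped1 (0.07), Bok (-0.11) and Iyd (0.15) had an edgeR FDR of at least 0.77.

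The female values of the dentate gyrus markers moved with the RUV factors. Across the 12 libraries Prox1 had a Pearson correlation of 0.63 with the second factor, Dsp of 0.47 and C1ql2 of 0.28. The largest of the 8 markers with either factor was -0.72, of Mpped1 with the first. None of the 8 was among the genes used to estimate the factors. All 8 thus ranked in the top 5000 of the 14008 genes in the first test between groups. Without RUV factors the log2 fold change in females was -0.16 for Prox1 (edgeR FDR 0.819), -0.29 for Dsp (FDR 0.783) and -0.28 for C1ql2 (FDR 0.738), and the SE of Prox1 was 1.96 times that of the fit with the factors. Fibcd1 was at -0.36 (edgeR FDR 0.513). Calls in females also differed between tools. The likelihood ratio test called Prox1 (FDR 0.0358), among 288 of 14008 genes. DESeq2 called Prox1 (FDR 0.0197) and Fibcd1 (FDR 0.0462), among 296 of 14008. Prox1 passed the threshold in edgeR's quasi-likelihood test without APP/PS1 female 4 (FDR 0.0503), APP/PS1 male 1 (FDR 0.0989) or APP/PS1 male 4 (FDR 0.0421). Fibcd1 was at -0.52 (FDR 0.097) without WT female 2 and at -0.11 (FDR 0.943) without WT female 1, and C1ql2 at -0.12 without WT female 1 and at -0.54 without WT female 2.

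In males no marker was called, against 24 genes (0.171%, and 0.15% without RUV factors), and none had an unadjusted p under 0.05, against 5.7% of genes. The dentate gyrus markers had higher values in APP/PS1 males, with log2 fold changes of 0.11 for Prox1, 0.13 for C1ql2 and 0.25 for Dsp (edgeR FDR of at least 0.995). Fibcd1 stood at -0.21 (SE 0.108, unadjusted p = 0.0743 in edgeR) and Mpped1 at -0.14 (SE 0.0643, unadjusted p = 0.0503 in edgeR). For both genes all 4 APP/PS1 males were below both WT males, which 4.34% of all genes tested were. Iyd was at 0.44 (SE 0.254), Bok at 0.12 and Wfs1 at -0.10.

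The interaction asks whether the genotype difference itself differed between the sexes. No gene of the 14008 was called (0%) by the quasi-likelihood test, with or without RUV factors, and 4.03% had an unadjusted p under 0.05. Among these were 4 of the 8 markers. The female minus male difference in log2 fold change was -0.39 for Prox1 (SE 0.0973, unadjusted p = 0.00141 in edgeR), -0.48 for C1ql2 (SE 0.21, unadjusted p = 0.0456 in edgeR), -0.68 for Dsp (SE 0.24, unadjusted p = 0.0195 in edgeR) and 0.21 for Mpped1 (SE 0.093, unadjusted p = 0.0397 in edgeR). Each had an edgeR FDR of 0.995. The 3 dentate gyrus markers thus had lower fitted values in female and higher values in male APP/PS1 animals. Without RUV factors their edgeR unadjusted p was 0.181, 0.0936 and 0.094.

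Females against males, averaged over genotype, gave 14 called genes (0.0999%, and 0.0642% without RUV factors), none of them a marker. The female minus male log2 fold change was 0.21 for Prox1 (SE 0.049, unadjusted p = 0.000753, edgeR FDR 0.361) and 0.32 for Bok (SE 0.129, unadjusted p = 0.0336, edgeR FDR 0.717). Mpped1 was at -0.10 (unadjusted p = 0.0454 in edgeR). These 3 had an unadjusted p under 0.05, as did 6.37% of all genes. The mean level of Prox1 was 118 CPM in WT females and 97.4 CPM in WT males, and 106 and 105 CPM in APP/PS1 females and males. Without RUV factors the sex difference of Prox1 was 0.14 (edgeR FDR 0.92), and it passed the threshold without APP/PS1 male 4 (FDR 0.0958).

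To describe each library by its subfields, the log2 levels of the markers were set against their mean over the 12 libraries and averaged per subfield. The dentate gyrus index was -0.01 ± 0.162 in APP/PS1 animals (SD, n = 8) and 0.03 ± 0.28 in WT animals (SD, n = 4). The CA1 index was -0.04 ± 0.118 and 0.07 ± 0.116, and the CA3 index 0.06 ± 0.139 and -0.12 ± 0.232. With the sexes pooled, the difference between genotypes was for each subfield smaller than the SD among WT animals, which does not show equal content. By sex, the dentate gyrus index was -0.06 in APP/PS1 and 0.18 in WT females, and 0.04 and -0.13 in males. The CA1 index was -0.02 and -0.004 in females and -0.05 and 0.145 in males. In males it did not overlap, at -0.19 to 0.03 in APP/PS1 and 0.07 and 0.22 in WT animals. By the wider CA1 list described below, males stood at -0.16 to 0.08 and at 0.09 and 0.16. Of single genes, 4.34% had all 4 APP/PS1 males below both WT males. In females the CA1 index overlapped, at -0.23 to 0.11 and at -0.07 and 0.06. The CA3 index was 0.08 and 0.004 in females and 0.05 and -0.25 in males.

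The indices also varied between single animals of one genotype. The dentate gyrus index ran from -0.31 in WT male 2 to 0.37 in WT female 1, so the 2 extremes were both WT. In WT male 2 the CA1 index was the highest of all, at 0.22, and the CA3 index the lowest, at -0.46. By the wider lists described below, WT male 2 stood at -0.30 for the dentate gyrus, 0.09 for CA1 and 0.0029 for CA3. Its CA1 and CA3 extremes thus did not recur there. The dentate gyrus index minus the CA1 index was -0.53 in this animal and 0.39 in APP/PS1 male 2, the library with the most Ttr. When WT male 2 was left out, the male log2 fold change of C1ql2 was -0.13 in place of 0.13, and without WT male 1 it was 0.45. Without WT female 1 the female value of Dsp was -0.12, and without WT female 2 it was -0.68.

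**Figure D3:**
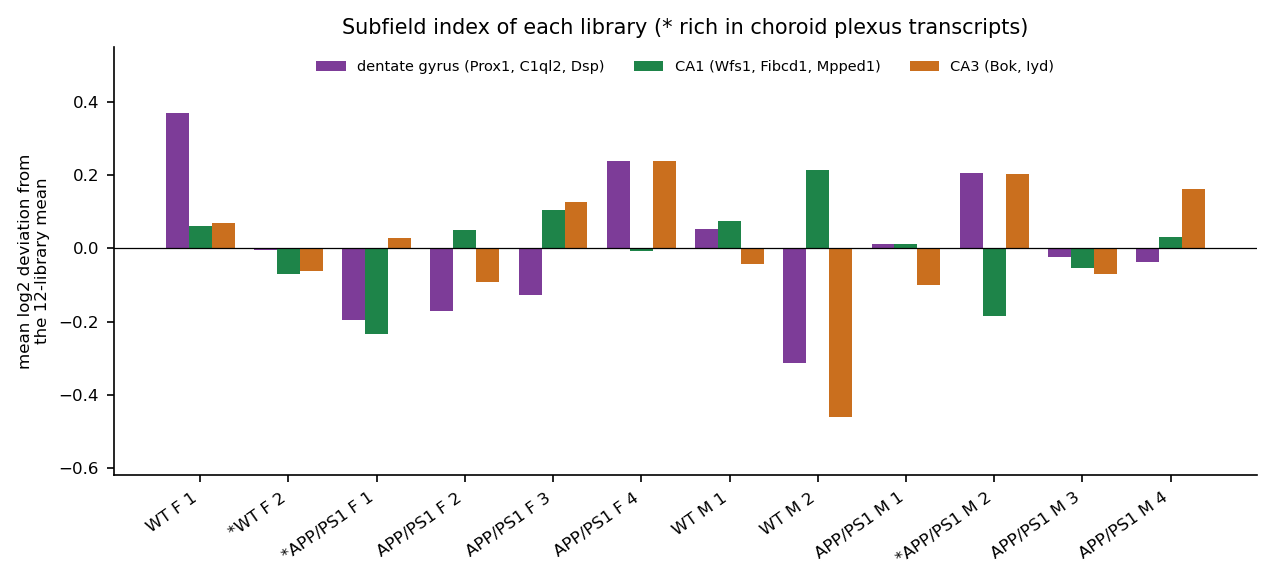
Mean log2 deviation of the markers of each subfield from the mean of the 12 libraries (vertical axis), as bars for every animal; the stars mark the 3 choroid plexus-rich libraries. WT female 1 (0.37) and WT male 2 (-0.31) have the highest and the lowest dentate gyrus index.

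Markers of one subfield did not always move together across the 12 animals. Among the 28 pairs of markers, Prox1 and Dsp were the closest, with a Pearson correlation of 0.84 (permutation p = 0.00037, 0.0104 after adjustment over the 28 pairs) and a Spearman correlation of 0.84 (permutation p = 0.00114, 0.0319 adjusted). It was 0.76 without the 2 libraries farthest from the median of Prox1, 0.87 over the 9 libraries poor in choroid plexus and 0.80 within groups. Prox1 and C1ql2 correlated at 0.60 (permutation p = 0.0394, 0.184 adjusted; Spearman 0.52, permutation p = 0.0846, 0.251 adjusted; 0.73 without 2 libraries). C1ql2 and Dsp correlated at 0.62 (permutation p = 0.0325, 0.184 adjusted; Spearman 0.63, permutation p = 0.0329, 0.251 adjusted), but at 0.30 without the 2 libraries farthest from the median of C1ql2. This pair was at 0.58 over the 9 libraries poor in choroid plexus and at 0.56 within groups.

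For CA1 and CA3 the markers of one field were not alike. Fibcd1 and Mpped1 correlated at 0.53 (permutation p = 0.0735; Spearman 0.55, permutation p = 0.07), Wfs1 and Mpped1 at 0.33 (permutation p = 0.293; Spearman 0.34, permutation p = 0.277) and Wfs1 and Fibcd1 at -0.31 (permutation p = 0.329; Spearman -0.20, permutation p = 0.546). Bok and Iyd correlated at -0.17 (permutation p = 0.605; Spearman -0.08, permutation p = 0.799), while Bok, a CA3 marker, followed Wfs1, a CA1 marker, at 0.66 (permutation p = 0.0206; Spearman 0.50, permutation p = 0.104). That relation was at 0.08 without the 2 libraries farthest from the median of Wfs1. After adjustment over the 28 pairs, the p of these 5 was at least 0.184. The pair with the lowest correlation was Mpped1 and Iyd, at -0.61 (permutation p = 0.0335, 0.184 adjusted; Spearman -0.56, permutation p = 0.0631, 0.251 adjusted), which was -0.32 without 2 libraries. The 7 pairs of markers of one subfield had a median correlation of 0.53 and the 21 pairs of different subfields one of -0.14, with ranges from -0.31 to 0.84 and from -0.61 to 0.66.

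**Figure D4:**
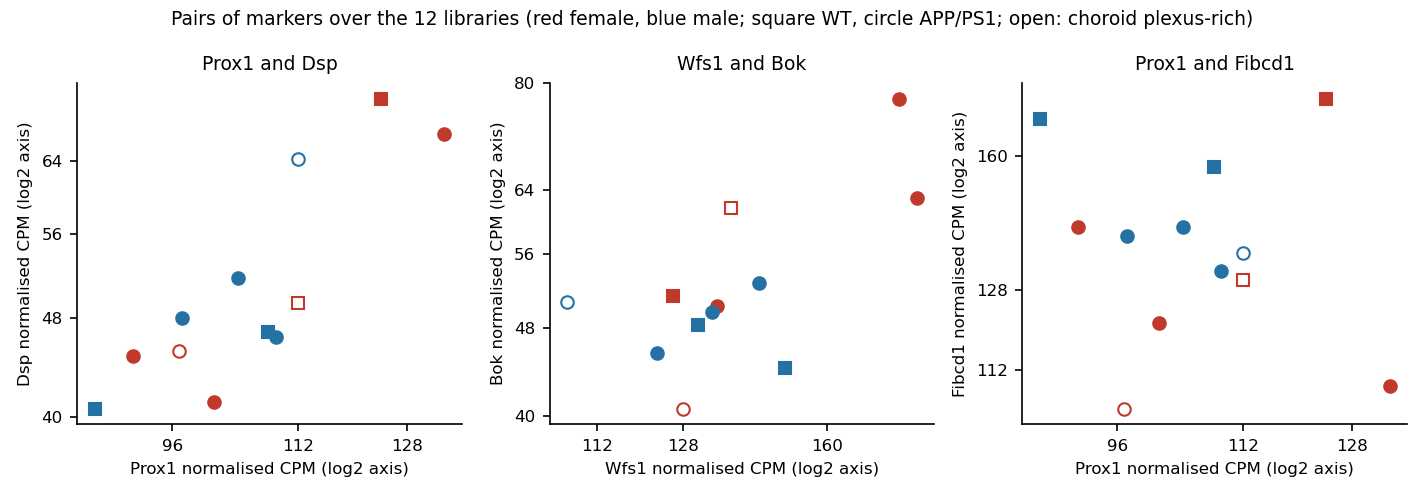
Normalised CPM of 2 markers against each other on log2 axes, for Prox1 and Dsp, Wfs1 and Bok, and Prox1 and Fibcd1; each point is 1 animal, red for females and blue for males, squares for WT and circles for APP/PS1, open for the choroid plexus-rich libraries. Prox1 and Dsp (correlation 0.84) lie along a line, and Prox1 and Fibcd1 (-0.17) do not.

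The genes most like each marker across the 12 libraries were found among 13993 others by the Pearson correlation of log2 CPM, as a description, since the highest of so many values are high by selection. Dsp was followed most closely by Npnt (0.89), another gene of the dentate gyrus list, and by Sema5a (0.88) and Skida1 (0.87). Prox1 was followed by Orai2 (0.90), Diaph2 (0.89) and Nfib (0.89), and C1ql2 by Epor (0.95), Fam131a (0.86) and Zfp78 (0.80). For CA1, Wfs1 was followed by A230103J11Rik (0.89), Gm10557 (0.88) and Hs6st1 (0.86), Fibcd1 by Galnt16 (0.93), Zfp516 (0.92) and Rnf44 (0.91), and Mpped1 by Pnmal1 (0.96), Usp27x (0.94) and Rhobtb2 (0.93). For CA3, Bok was followed by Lrrc10b (0.93), Scube1 (0.91) and Brinp1 (0.91), and Iyd by Dancr (0.88), Asxl2 (0.87) and Tmem144 (0.86).

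A wider set of 34 markers of the dentate gyrus, CA1, CA2, CA3, mossy cells and the subiculum was read in the same fit, and 31 of them had enough reads to be tested. Over both sexes 1 was called, Spink8, a CA1 gene encoding a Kazal-type serine protease inhibitor, at a log2 fold change of -0.28 (SE 0.0725, edgeR FDR 0.0987), against 1.9% of all genes. Without RUV factors Spink8 stood at -0.18 (FDR 0.859), and with 1 animal left out it passed the threshold in 2 of the 12 fits, while none of the 31 did so in 8 and 4 did so without WT male 1. Its CPM ranged from 15.6 to 27.1 in APP/PS1 and from 18 to 27.1 in WT animals, so the genotypes overlapped with the sexes pooled. The mean was 20.1 CPM in APP/PS1 and 19.4 CPM in WT females, and 20.2 and 26.7 CPM in males. All 4 APP/PS1 males lay below both WT males, as for 4.34% of all genes tested. The median log2 fold change of the 31 was -0.02. The other wider CA1 gene with a value below 0 was Gpr161, a G protein-coupled receptor of primary cilia, at -0.25 (SE 0.075, unadjusted p = 0.0066, edgeR FDR 0.221). It lay at 84.4 to 114 CPM in APP/PS1 and at 101 to 134 CPM in WT animals. Of the 4 wider CA1 genes tested, 2 were lower over both sexes and 2 higher, the highest at 0.04.

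In females none of the 31 was called, with a smallest edgeR FDR of 0.361. At an unadjusted p under 0.05 in edgeR 4 passed, all lower in APP/PS1 animals, against 9.79% of all genes and 3.64% in that direction. Of the 31, 26 had a log2 fold change below 0 (22 without RUV factors), at a median of -0.14, where 45.9% of all genes were below 0. In males none was called, with a smallest edgeR FDR of 0.25. There 7 had an unadjusted p under 0.05 in edgeR (3 higher, 4 lower), against 5.7% of genes. In that sex 14 of the 31 were below 0 (12 without RUV factors), at a median of 0.03. Tbr1, a neocortical transcription factor, stood at 0.31 in females (SE 0.0789, edgeR FDR 0.137) and all 4 neocortex markers tested were above 0 in that sex, at a median of 0.17.

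None of the 9 wider dentate gyrus genes was called in either sex or in the interaction (edgeR FDR 0.995), in which 1 had an unadjusted p under 0.05. In females all 9 had a log2 fold change below 0, at a median of -0.10 and from -0.29 to -0.02, where 45.9% of all genes were below 0. Without RUV factors 7 of 9 were below 0, Tdo2 (0.17) and Lct (0.02) being above it. In males 2 of 9 were below 0, where 47.7% of all genes were, and the median was 0.16. Of the 2 with most reads, Stxbp6, a syntaxin-binding protein, was at -0.09 in females and 0.13 in males, and Dock10, a guanine nucleotide exchange factor, at -0.21 (unadjusted p = 0.0442 in edgeR) and 0.16. These genes share their animals with the markers, so they are not independent evidence, and across the 12 libraries the index of the 9 followed that of the 3 markers at a correlation of 0.754.

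The 6 wider CA3 genes also lay below 0 in females, at a median of -0.15 (5 of 6 without RUV factors), and 5 of 6 lay above 0 in males, at 0.07. Spock1, a secreted proteoglycan, was at -0.09 and -0.04, and Homer3, a postsynaptic scaffold protein, at -0.18 and 0.09. Their index followed that of Bok and Iyd at a correlation of 0.133, and that of the CA1 genes followed Wfs1, Fibcd1 and Mpped1 at 0.302.

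In CA2, Rgs14, a regulator of G protein signalling, stood at 0.08 and Necab2, a neuronal calcium-binding protein, at -0.12 over both sexes, and 1 of 6 genes had an unadjusted p under 0.05. Sostdc1, a secreted BMP antagonist on this list, was named after its values were seen. It lay at 21.2, 21.5 and 42.2 CPM in the 3 choroid plexus-rich libraries and at 1.36 to 3.18 CPM in the others, and it is also a gene of the choroid plexus. In the mossy cell list Ajap1, an adherens junction protein, was at -0.16 (unadjusted p = 0.022, edgeR FDR 0.381) and Calb2, the calcium-binding protein calretinin, at -0.30 (SE 0.259). Of the subiculum genes, Fn1, encoding fibronectin, was at -0.34 (SE 0.15, edgeR FDR 0.527) and Nts, encoding neurotensin, at -0.13. Csf2rb2, Nmb and Teddm3 had too few reads to be tested.

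**Figure D5:**
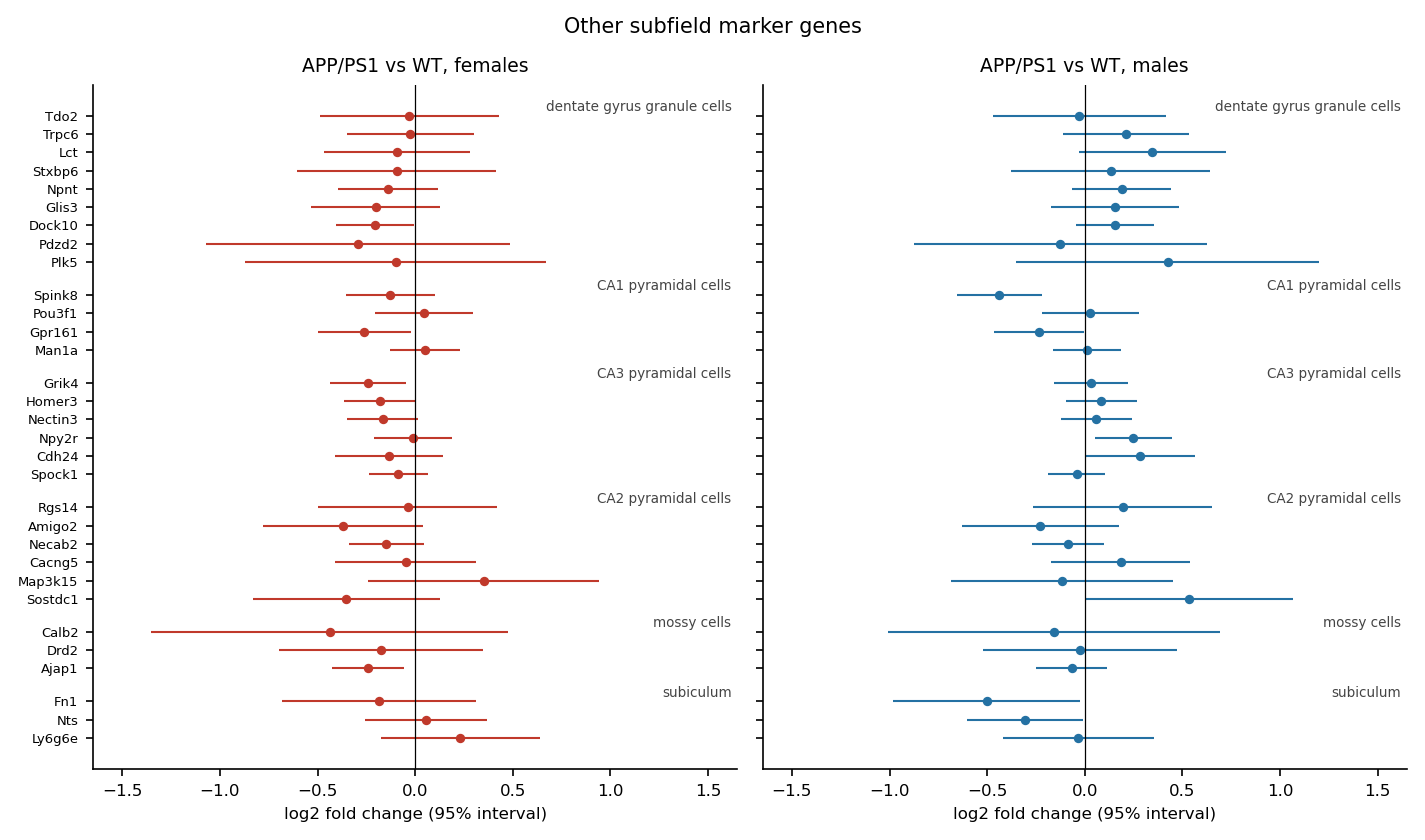
Log2 fold change of APP/PS1 against WT (horizontal axis) with its 95% interval for the 31 wider subfield markers tested, by list, in females (left) and males (right). The fit shown has 2 RUV factors; all 9 dentate gyrus genes lie below 0 in females (7 of 9 without the factors) and 7 of 9 above 0 in males (8 of 9 without them), most with intervals that cross 0, and no gene was called in either sex.

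Markers of neurons in general were the most even. Snap25 and Syt1, both of the vesicle release machinery, differed by log2 fold changes of 0.02 and 0.02 between the genotypes over both sexes, and the 5 genes of this list ranged from -0.01 to 0.02 without a call. Their summed level was 5200 to 5840 CPM in APP/PS1 and 5210 to 5640 CPM in WT animals. Of the 5 interneuron genes, Gad1, the main enzyme of GABA synthesis, was at -0.12 (SE 0.0407, unadjusted p = 0.0118, edgeR FDR 0.305) and Gad2 at -0.07. Of the genes that mark tissue next to the hippocampus, Slc17a6, the vesicular glutamate transporter of the thalamus, stood at 0.06 and Prkcd, a protein kinase C of thalamic neurons, at -0.06 over both sexes, and Lamp5, a cortical marker, at 0.06. In these lists the genes with an unadjusted p under 0.05 over both sexes were Lhx9, a transcription factor of the thalamus (-0.26, edgeR FDR 0.31), named after its values were seen, and Tbr1 (0.14, edgeR FDR 0.407). All 4 neocortex genes were above 0 over both sexes, at a median of 0.12. The summed neocortex markers were 132 to 154 CPM in APP/PS1 females and 118 to 132 CPM in WT females, and 124 to 157 and 139 to 158 CPM in males. Their part in the female values of the subfield markers was not tested. The summed choroid plexus markers, in which Ttr and Kl had the highest levels, ran from 22.2 to 3800 CPM in APP/PS1 females and were 26.5 and 3980 CPM in WT females. In males they ran from 21.1 to 6840 CPM in APP/PS1 animals and were 23.8 and 28.3 CPM in WT animals.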

How the data were processed

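Right hippocampi of 12 mice were measured by polyA RNA sequencing, 1 library per animal. Per the labels, the authors used Trimmomatic, STAR, HTSeq and edgeR with GRCm38, and the deposited values are raw counts per Ensembl gene. The annotation release, tool versions and strand option of the counting are not given in the sources used here, so reads of antisense overlaps could not be assigned. Symbols and positions came from GENCODE M21, and promoter windows from RefSeq.

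A gene was tested if its log2 CPM reached 1 in 3 or more libraries (14008 genes). Library sizes used upper-quartile scaling. The 2 RUV factors were recomputed after the RUVg method, taking as controls the genes outside the top 5000 of a first test between groups. All libraries entered 1 quasi-likelihood fit (edgeR 4.0.16 in R 4.3.3), with two-sided contrasts for both sexes averaged, each sex, their interaction and sex. Calls used an FDR under 0.1, and intervals are 95% and not adjusted. Fold changes carry the RUV factors, while normalised CPM and RPKM do not. Correlations used 100000 permutations. Libraries of one group differed by 15.5 to 73 chi-square units per degree of freedom, more than counting noise. The fit was tested on simulated counts.

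The markers and lists were chosen with earlier results of these data known. Named were the 8 markers, of each wider list the called genes or otherwise the 2 with the highest mean CPM, and for each marker the 3 genes most correlated with it. A gene of the wider lists is not reported here. Gpr161, Amigo2, Tdo2, Lct, Lhx9 and Sostdc1 were named after their values were seen. As alternatives, the results were recomputed with DESeq2 1.42.0, the likelihood ratio test, scaling by TMM, other expression filters, fewer RUV factors, a replicate block and an FDR of 0.05. Fits were also run without the 3 choroid plexus-rich libraries or without each animal. Leaving out those 3 libraries keeps only 1 WT female, and leaving out a WT animal keeps 1 WT animal of its sex.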

Additional observations from a re-analysis of the deposited data

Results flagged for a closer look

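In APP/PS1 females, Dsp in animal 4 (67.3 CPM) stood apart from the other 3 (41.1 to 45.1 CPM), with a gap of 0.849 of the whole range of the group. Chance gives such a gap in about 1 of 20 groups. It was looked for in all 8 markers, in APP/PS1 females and in APP/PS1 males, so 1 such gap among them is not unusual. The same animal had the highest Prox1 of all 12 libraries, 134 CPM. Without it the female log2 fold change of Prox1 was -0.33 (edgeR FDR 0.0503), which passed the threshold.

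The genotype difference of 4 markers differed between the sexes at an unadjusted p under 0.05. The interaction log2 fold change was -0.39 for Prox1, -0.48 for C1ql2, -0.68 for Dsp and 0.21 for Mpped1, and none passed the correction over 14008 genes (edgeR FDR 0.995). Each sex has 2 WT animals, and the values of the first 3 ranged over the 12 fits without 1 animal from -0.50 to -0.24, from -0.78 to -0.19 and from -0.92 to -0.34.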

How the results depend on the processing

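Over both sexes the count of markers called was 0, and it was 1 (Fibcd1) in the likelihood ratio test, in DESeq2 and without an expression filter, and 0 to 1 when animals were left out in turn. In females it was 1 (Prox1) in the likelihood ratio test, 2 (Prox1 and Fibcd1) in DESeq2 and without the filter, and 0 to 1 with animals left out. For females against males it was 1 (Prox1) in the likelihood ratio test and in DESeq2, and 0 to 1 with animals left out. Of the wider subfield genes, 2 were called over both sexes in the likelihood ratio test and in DESeq2 (Spink8 and Gpr161), and 0 without RUV factors, with 1 factor, with the replicate block, without both the RUV factors and the 3 choroid plexus-rich libraries, and at an FDR of 0.05, and 0 to 4 with animals left out, 4 (Spink8, Amigo2, Necab2 and Fn1) without WT male 1. In males and in the interaction no marker was called under any alternative run. Over all 14008 genes, the likelihood ratio test and DESeq2 called 396 and 399 over both sexes, 288 and 296 in females, and 59 and 57 between the sexes. Without an expression filter 320 of 33621 genes were called over both sexes and 205 in females. With 1 factor, the replicate block or an FDR of 0.05, 238, 196 and 183 of 14008 were called over both sexes. The cause of the changes in these counts was not tested.

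Some uncalled fold changes changed sign, and the cause was not tested. Bok over both sexes was -0.0056 in DESeq2, -0.003 with TMM and -0.107 with the replicate block. In females Bok was 0.033 without RUV factors and 0.30 without both the RUV factors and the 3 choroid plexus-rich libraries, where its interaction was 0.20 and Iyd in females -0.25. With the replicate block Wfs1 over both sexes was -0.081, Bok in males -0.0061 and Iyd between the sexes -0.027. C1ql2 between the sexes was -0.0019 without RUV factors.

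With single animals left out, the log2 fold change over both sexes ranged from -0.23 to 0.059 for C1ql2, -0.22 to 0.052 for Dsp, -0.022 to 0.14 for Wfs1, -0.062 to 0.0105 for Mpped1 and -0.083 to 0.14 for Bok. In females it ranged from -0.34 to 0.10 for Bok and -0.20 to 0.57 for Iyd, and in males from -0.0087 to 0.23 for Prox1, -0.13 to 0.45 for C1ql2 and -0.20 to 0.0083 for Wfs1. The interaction ranged from -0.29 to 0.11 for Fibcd1, -0.51 to 0.025 for Bok and -0.64 to 0.19 for Iyd, and the sex difference from -0.10 to 0.19 for C1ql2 and -0.19 to 0.19 for Iyd.

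Samples with one replicate number did not consistently deviate together (correlations of -0.64 to 0.24). With 2 WT animals per sex the deviations mirror each other, so both pairs of WT females and males gave 0.07. Whether a number marks animals handled together is not given and was not tested. With the replicate block no marker was called, and Fibcd1 over both sexes was -0.17 (edgeR FDR 0.51).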
